A study of Homo sapiens with 7 samples.

Results

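MHC class II molecules, their invariant chain and the master regulator CIITA were followed in the B-cell lymphoma lines RL and JeKo-1, untreated or after 6 h with an inhibitor of the kinase BTK. The set held 10 genes, chosen by symbol from the 22257 genes of the deposited tables: CIITA, CD74, HLA-DRA, HLA-DRB1, HLA-DPA1, HLA-DPB1, HLA-DQA1, HLA-DMA, HLA-DMB and HLA-DOB. For each gene the RefSeq transcript that averaged most reads over the 7 libraries was used; the 10 genes had 12 transcripts in the tables. The submitters' labels call both lines mantle cell lymphoma, and the series title names the inhibitor as ibrutinib, at a dose that the labels do not state. RL was sequenced in 2 untreated and 2 treated libraries, and JeKo-1 in 1 untreated and 2 treated libraries. The labels name no genetic change and no agent in the control cells, and a file header gives 6 h for the JeKo-1 control. Whether replicate libraries stem from separate cultures is not stated in the labels. The p-values therefore cover the scatter among these 7 libraries alone, and that scatter may be technical.

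Peptides from the endosomal pathway are shown to CD4+ T cells by the DR, DP and DQ molecules, each a pair of an alpha and a beta chain. The chains are assembled on the invariant chain, CD74, whose groove fragment CLIP is removed by HLA-DM, and HLA-DM is held back by HLA-DO in B cells. CIITA does not bind DNA itself: it is recruited by the RFX, CREB and NF-Y factors that sit together on class II promoters, and B cells express it constitutively. CD74 lies on chromosome 5, CIITA on chromosome 16, and the 8 HLA genes on chromosome 6.

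Class II promoters are known for a shared module just upstream of the start site where these factors sit, and several of the members carry alike letters there. RefSeq's promoter table (GRCh38.p14, 300 bases a gene) held 9 promoters for 8 of the genes, all but CIITA and HLA-DRA. The 6 windows below, 70 bases each and written in the direction of the gene, are shown because they carry the pair of motifs or TGATGATG described below; those of HLA-DPA1 and HLA-DPB1, with a single common motif each, are not printed. Capitals mark CNAGNNAC, TGATGATG, and CCAAT or its reverse ATTGG, the sequence bound by NF-Y. Both strands were searched, the marked stretches do not overlap, and the letters were chosen after the sequences had been seen.
CD74 (chr5:150412934-150413003, minus strand): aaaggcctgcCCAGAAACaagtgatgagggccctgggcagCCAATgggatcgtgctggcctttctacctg
HLA-DRB1 (chr6:32589870-32589939, minus strand): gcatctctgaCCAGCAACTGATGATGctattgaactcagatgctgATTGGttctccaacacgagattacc
HLA-DQA1 (chr6:32637292-32637361, plus strand): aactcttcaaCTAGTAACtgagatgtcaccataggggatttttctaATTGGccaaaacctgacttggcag
HLA-DMA (chr6:32953153-32953222, minus strand): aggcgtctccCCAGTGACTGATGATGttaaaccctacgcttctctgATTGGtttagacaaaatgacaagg
HLA-DMB (chr6:32941059-32941128, minus strand): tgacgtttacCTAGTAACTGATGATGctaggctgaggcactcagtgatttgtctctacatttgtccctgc
HLA-DOB (chr6:32817076-32817145, minus strand): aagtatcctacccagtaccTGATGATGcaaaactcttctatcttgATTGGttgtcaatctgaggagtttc
CNAGNNAC followed 10 to 32 bases later by CCAAT or ATTGG was found in the promoters of 4 of these 8 genes (CD74, HLA-DMA, HLA-DQA1 and HLA-DRB1) and in 1.79% of all 35116 promoters of the table. TGATGATG was in 4 of the 8 genes (HLA-DMA, HLA-DMB, HLA-DOB and HLA-DRB1) and in 0.94% of all promoters. Singly the other letters were common: CNAGNNAC was in 6 of the 9 promoters and in 39.3% of all, and CCAAT or ATTGG in 7 of the 9 and in 34.6% of all. These matches describe the letters only.

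Library totals, counting 1 transcript per gene, ran from 19.13 to 33.47 M reads. Levels are in CPM, the read count relative to the library's total over all transcripts, scaled by TMM over the 7 libraries. The 8 B-cell markers added up to 2350 to 2750 CPM in the RL libraries and 1010 to 1050 CPM in those of JeKo-1, with none of the 8 at 0 in every library. MS4A1 alone held 1390 and 1340 CPM in the RL controls. CR2 had 0 reads in the JeKo-1 control and 1 and 2 reads in treated JeKo-1. Together 7 T and NK cell markers reached 0.634 to 0.872 CPM in RL, and in JeKo-1 8.18 to 9.44 CPM, of which CD247 alone made up 9.21 CPM without and 8.17 and 7.96 CPM with the inhibitor. The 12 markers of monocytes and dendritic cells, which also carry class II, summed to 274 and 290 CPM in the RL controls, 96.3 and 90.1 in treated RL, 9.59 in the JeKo-1 control and 3.22 and 3.68 in treated JeKo-1. Most of that sum in RL and in the JeKo-1 control was CD1C, at 265 and 280 CPM in the RL controls, a gene that B cells can also express. In treated JeKo-1 most of it was CD68, at 2.32 and 2.47 CPM. FCER1A, CLEC10A, S100A8 and S100A9 were at 0 in all libraries, and CD14 stayed between 1 and 8 reads.

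**Figure D1:**
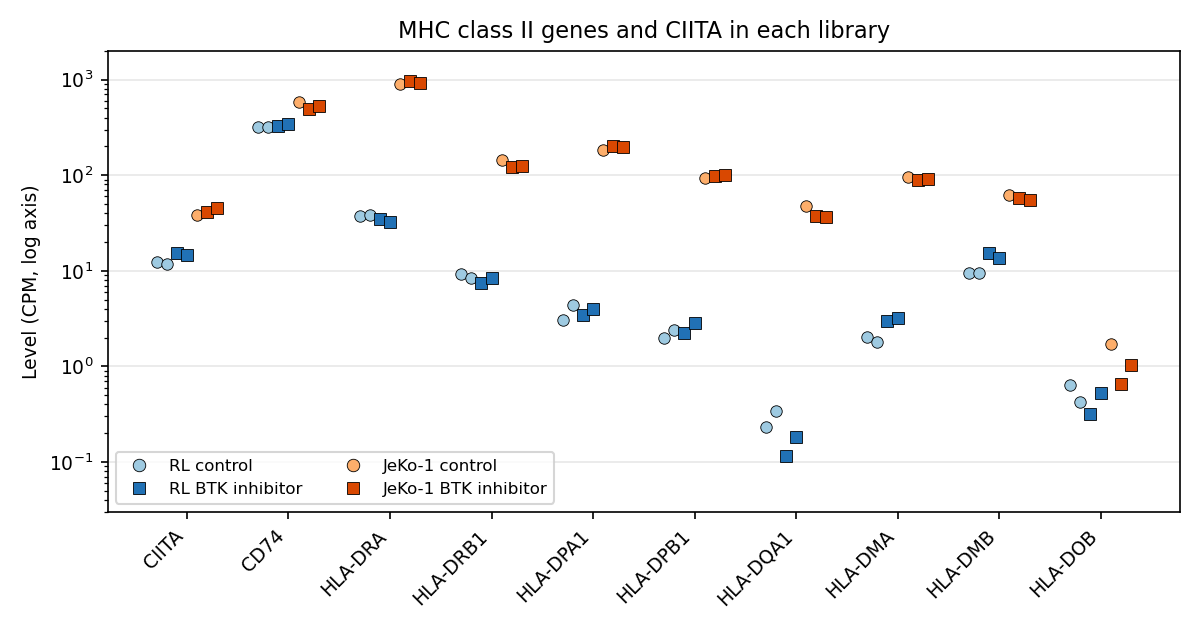
Level of each gene in each of the 7 libraries, in CPM on a log axis; circles are untreated and squares treated libraries, with RL in blue and JeKo-1 in orange. The symbols of JeKo-1 lie above those of RL for every gene, by a narrow margin only for HLA-DOB (lowest JeKo-1 library 0.65, highest RL library 0.644).

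Untreated JeKo-1 carried far more class II RNA than untreated RL. All 10 genes passed the test (the quasi-likelihood test of edgeR, Benjamini-Hochberg adjusted over all transcripts, call at an adjusted p under 0.05), all in the direction of JeKo-1. Over all 15845 genes tested, 76.4% passed, 37.2% higher and 39.1% lower in JeKo-1. At least 16-fold higher, a bound chosen after the values were seen, were 6 of the 10 genes and 2.25% of all genes. The median log2 difference was 4.30 over the 10 genes and -0.05 over all genes. The single JeKo-1 control is assumed in this model of all 7 libraries to vary like the other groups.

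The alpha chain of DR, HLA-DRA, held 37.7 and 38.1 CPM in the RL controls, 34.9 and 32 in treated RL, 901 in the JeKo-1 control and 973 and 929 in treated JeKo-1. All 3 JeKo-1 libraries were far above the 4 RL libraries, and untreated JeKo-1 was 23.7-fold higher (log2 4.57 ± 0.07 SE, adjusted p = 1.07e-20). Its partner HLA-DRB1 held 9.20 and 8.33 CPM in the RL controls, 7.46 and 8.42 in treated RL, 143 in the JeKo-1 control and 121 and 126 in treated JeKo-1. The untreated lines differed 16.3-fold in HLA-DRB1 (log2 4.02 ± 0.08, adjusted p = 2.82e-19).

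The DP chains differed between the lines by larger folds than the DR chains. HLA-DPA1, the alpha chain, held 3.08 and 4.35 CPM in the RL controls, 3.46 and 3.98 in treated RL, 185 in the JeKo-1 control and 201 and 195 in treated JeKo-1. The beta chain HLA-DPB1 held 1.96 and 2.39 CPM in the RL controls, 2.22 and 2.83 in treated RL, 93.9 in the JeKo-1 control and 97.9 and 100 in treated JeKo-1. Untreated JeKo-1 was 49.5-fold higher in HLA-DPA1 and 43.0-fold higher in HLA-DPB1 (log2 5.63 ± 0.10 and 5.43 ± 0.10).

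HLA-DQA1, the DQ alpha chain, was close to the detection limit in RL. It had 10 and 16 reads in the RL controls and 4 and 11 reads in treated RL, against 1870 in the JeKo-1 control and 1337 and 1353 in treated JeKo-1. In CPM these were 0.23, 0.341, 0.115 and 0.181 in RL and 47.4, 37.8 and 36.7 in JeKo-1. The untreated difference was 163-fold (log2 7.35 ± 0.15, adjusted p = 7.59e-19), the widest of the 10 genes.

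The peptide exchange factor HLA-DM did not keep its chains in the same proportion in the lines. HLA-DMA held 2.02 and 1.79 CPM in the RL controls, 2.97 and 3.18 in treated RL, 94.8 in the JeKo-1 control and 88.8 and 90.9 in treated JeKo-1. HLA-DMB held 9.43 and 9.38 CPM in the RL controls, 15.3 and 13.6 in treated RL, 62.4 in the JeKo-1 control and 57.3 and 55.0 in treated JeKo-1. Untreated JeKo-1 was thus 49.7-fold higher in HLA-DMA but 6.62-fold higher in HLA-DMB (log2 5.64 ± 0.09 and 2.73 ± 0.08). HLA-DMB reads were 4.30 to 5.24 times those of HLA-DMA in the RL libraries and 0.605 to 0.658 times in the JeKo-1 libraries, and per length, too, HLA-DMB was the higher chain in RL and HLA-DMA in JeKo-1.

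HLA-DOB, the beta chain of the modulator HLA-DO, was low in both lines. It had 28 and 20 reads in the RL controls, 11 and 32 in treated RL, 67 in the JeKo-1 control and 23 and 38 in treated JeKo-1. Untreated JeKo-1 was 3.18-fold higher (log2 1.67 ± 0.34, adjusted p = 1.63e-04), and the treated JeKo-1 libraries, at 0.65 and 1.03 CPM, came close to the RL range of 0.317 to 0.644 CPM.

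CIITA and CD74 differed by smaller folds between the lines than HLA-DRA, HLA-DRB1, HLA-DPA1, HLA-DPB1 and HLA-DQA1. CIITA held 12.5 and 11.8 CPM in the RL controls, 15.3 and 14.6 in treated RL, 37.9 in the JeKo-1 control and 40.9 and 45.1 in treated JeKo-1. CD74 held 319 and 320 CPM in the RL controls, 327 and 341 in treated RL, 579 in the JeKo-1 control and 496 and 524 in treated JeKo-1. Untreated JeKo-1 was 3.13-fold higher in CIITA and 1.81-fold higher in CD74 (log2 1.65 ± 0.09 and 0.86 ± 0.06). As a ratio of CPM not divided by length, CD74 was 4.90 to 5.27 times the summed CPM of the 8 HLA genes in the RL libraries and 0.314 to 0.379 times in the JeKo-1 libraries. The summed level itself was 64.3 to 66.7 CPM in RL, and in JeKo-1 it was 1530 to 1580 CPM.

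Divided by transcript length, the order of the genes also differed between the lines. In the RL controls CD74 led with 326 CPM per kb, followed by HLA-DRA with 29.6, HLA-DRB1 with 7.13, HLA-DMB with 6.73, HLA-DPA1 with 2.18, HLA-DMA with 1.70, HLA-DPB1 with 1.39, HLA-DOB with 0.39 and HLA-DQA1 with 0.179. In the JeKo-1 control HLA-DRA led with 704 CPM per kb, ahead of CD74 with 590, HLA-DRB1 with 116, HLA-DPA1 with 109, HLA-DMA with 84.4, HLA-DPB1 with 60.2, HLA-DMB with 44.6, HLA-DQA1 with 29.8 and HLA-DOB with 1.24. HLA-DRB1 and HLA-DMB in RL, and HLA-DRB1 and HLA-DPA1 in JeKo-1, are neighbours whose means are closest; no test was made between genes. Lengths are those of the GENCODE v29 transcript matched by RefSeq accession; with the longer matched CD74 transcript of 1449 bases in place of 981, CD74 was at 221 in RL and 400 in JeKo-1. CIITA has no per-length value here because its match runs to 16059 bases.

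Several of these genes have closely related copies between which reads can be split. Of the 50-base stretches of the HLA-DRB1 transcript, 8.64% also occur in HLA-DRB5 and 2.29% in the pseudogene HLA-DRB6, and the transcripts are 92.7% and 85.1% identical. HLA-DQA1 shares 9.53% of its stretches with HLA-DQA2 (91.2% identical), and HLA-DPB1 shares 2.18% with the pseudogene HLA-DPB2. CD74, HLA-DRA, HLA-DPA1, HLA-DMA, HLA-DMB and HLA-DOB share none with another class II gene at this length. HLA-DPA1 and HLA-DPB1 overlap on opposite strands by 31 and 96 exon bases, and reads carry no strand with this kit. CIITA's matched transcript of 16059 bases overlaps opposite-strand genes too, DEXI by 830 exon bases and AC133065.1 by 167. The part of such reads in the counts was not tested. The tables give 1 row per gene, not per allele, and class II genes vary between people, so how reads of alleles unlike the reference were placed was not tested.

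The copies followed the same split between the lines. HLA-DQA2 had no read in any of the 4 RL libraries and 1943 reads in the JeKo-1 control and 1340 and 1448 in treated JeKo-1, numbers close to those of HLA-DQA1. Against a limit of 3 reads over both RL controls, untreated JeKo-1 was at least 1485-fold higher in HLA-DQA2. HLA-DRB5 had 48, 29, 31 and 67 reads in the RL controls and treated RL, and 1934, 1515 and 1567 in JeKo-1. HLA-DRB6 had 19, 22, 15 and 34 reads in RL and 1652, 1340 and 1356 in JeKo-1. With the copies summed, the untreated log2 difference was 4.53 for the DRB genes and 8.38 for the DQA genes, above the 4.02 and 7.35 of HLA-DRB1 and HLA-DQA1 alone.

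**Figure D2:**
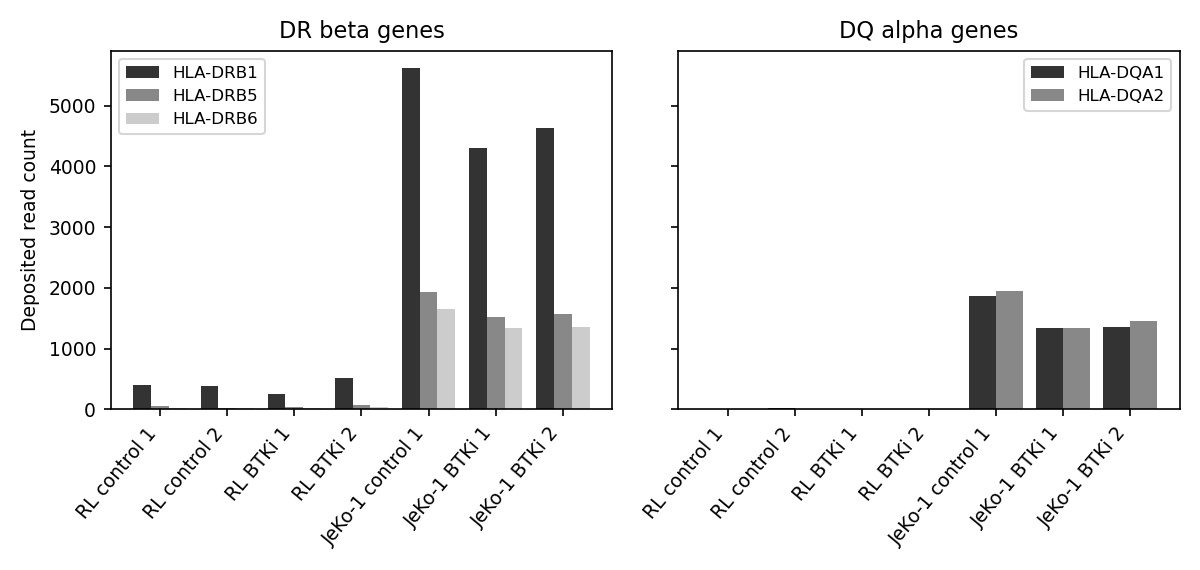
Deposited read counts of the DR beta genes (left) and DQ alpha genes (right) in each library, 1 bar per gene. HLA-DQA1 and HLA-DQA2 have near-equal bars in JeKo-1 (1870 and 1943 reads in the control) and at most 16 reads in RL.

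Of the 9 other class II symbols, 7 were in the tables and all 7 were higher in untreated JeKo-1, beside 37.2% of all genes. Several of the 7 share stretches with another class II gene, so they are not independent. The DR beta genes HLA-DRB3 and HLA-DRB4 were absent, and where any reads of theirs were placed was not tested. HLA-DQB1, the DQ beta chain, held 2.76 and 3.20 CPM in the RL controls and 14.7 in the JeKo-1 control, a 4.93-fold difference (log2 2.30 ± 0.13, adjusted p = 2.80e-12). It was thus much closer between the lines than its partner HLA-DQA1. HLA-DOA, the HLA-DO alpha chain, held 3.47 and 3.09 CPM in the RL controls and 32.7 in the JeKo-1 control, 9.96-fold higher. HLA-DQB2 and HLA-DPB2 had at most 1 read in any RL library, and 79 and 13 reads in the JeKo-1 control.

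The factors that sit with CIITA on class II promoters were split. Of 7 enhanceosome genes, 5 were higher and 1 lower in untreated JeKo-1. Over all genes 76.4% passed this test, 37.2% higher and 39.1% lower. NFYA, a subunit of NF-Y, was 5.61-fold higher (24.5 and 24.2 CPM in the RL controls, 137 in the JeKo-1 control), and RFX5, the large RFX subunit, was 3.47-fold higher (30.8 and 33.2 CPM against 111). RFXAP, NFYC and CREB1 were higher by log2 0.51 ± 0.17, 0.20 ± 0.09 and 0.30 ± 0.06. RFXANK, the third RFX subunit, was lower by log2 -0.18 ± 0.07, and NFYB did not pass (log2 -0.11 ± 0.07, adjusted p = 0.151). The call of NFYC was lost under 7 of 12 alternatives, that of RFXANK under 2 and that of RFXAP under 1.

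Other lists of antigen presentation held genes of both directions, and the total passing in each was near the share over all genes. Between the untreated lines 76.4% of all genes passed, 37.2% higher and 39.1% lower in JeKo-1. Of 10 regulators known from the CIITA promoters, 3 were higher and 5 lower in untreated JeKo-1, with PRDM1, the repressor Blimp-1, at 28.9 and 24.7 CPM in the RL controls and 2.18 in the JeKo-1 control. Of 11 tested genes of endosomal processing and class II turnover, 1 was higher and 7 were lower, and of 15 genes of MHC class I and its loading, 3 were higher and 8 lower. Their median log2 differences were -0.17, -0.45 and -0.23, beside -0.05 over all genes and 4.30 over the 10 genes described here.

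**Figure D3:**
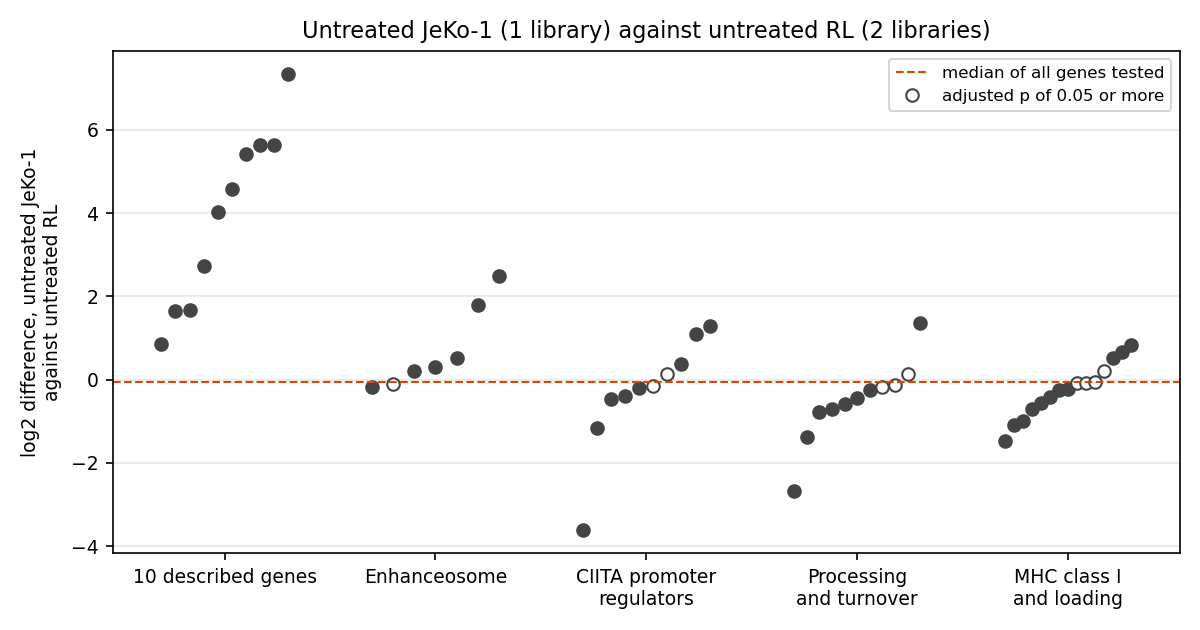
Log2 difference of untreated JeKo-1 (1 library) from untreated RL (2 libraries) for each tested gene of 5 lists, sorted within a list; open circles did not pass the test and the dashed line is the median of all genes. The class II genes and CIITA, on the left, all lie above 0, up to 7.35, while the other lists straddle the line.

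In RL, both chains of HLA-DM and CIITA rose and HLA-DRA fell after 6 h of BTK inhibitor. Thus 3 of the 10 genes rose and 1 fell, and 6 did not pass the test; of all 14932 genes tested in RL, 30.4% passed (15.1% higher, 15.3% lower), so the count of calls is near the background. HLA-DMA went from 88 and 84 reads in the controls to 103 and 193 in treated RL, in libraries of unequal depth. In the CPM values above, both treated libraries exceeded both controls, 1.62-fold on average (log2 0.70 ± 0.14, adjusted p = 0.00307). HLA-DMB rose 1.53-fold (log2 0.61 ± 0.09, adjusted p = 2.48e-04), again with treated libraries above both controls. Treated libraries lay entirely on 1 side of the controls in 65.3% of all genes in RL, so separation alone is common.

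CIITA rose 1.23-fold in RL (log2 0.30 ± 0.08, adjusted p = 0.0129), with treated libraries at 15.3 and 14.6 CPM above the controls at 12.5 and 11.8. HLA-DRA fell 1.14-fold (log2 -0.18 ± 0.06, adjusted p = 0.0334), from 37.7 and 38.1 CPM to 34.9 and 32. Both calls are close to the threshold: without RL control replicate 2 the adjusted p was 0.102 for CIITA and 0.123 for HLA-DRA, and by DESeq2's Wald test it was 0.062 and 0.115. HLA-DRA also lost its call without RL control replicate 1 (adjusted p = 0.0763) and without treated RL replicate 2 (0.247), when its log2 change was -0.11.

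The other RL members had wide or small estimates. CD74 changed by log2 0.06 ± 0.05, HLA-DRB1 by -0.13 ± 0.10, HLA-DPA1 by 0.01 ± 0.16 and HLA-DPB1 by 0.25 ± 0.17, with adjusted p from 0.295 to 0.959. HLA-DQA1, with at most 16 reads, was estimated at -0.86 ± 0.46 (adjusted p = 0.186), and HLA-DOB at -0.25 ± 0.34 (adjusted p = 0.635). In these low genes a change of that size was not detectable at this depth. The authors' deposited table gives log2 ratios in RL of 0.7053 for HLA-DMA, 0.6204 for HLA-DMB, 0.3087 for CIITA and -0.1765 for HLA-DRA, with FDR values of 0.0006618, 5.689e-07, 0.0332 and 0.1988.

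In JeKo-1, 4 of the 10 genes fell with the inhibitor and none rose. Over all 14050 genes tested in JeKo-1, 28.3% passed (13.4% higher, 14.9% lower). HLA-DQA1 fell 1.28-fold, from 47.4 CPM in the control to 37.8 and 36.7 (log2 -0.36 ± 0.08, adjusted p = 2.5e-05). HLA-DRB1 fell 1.16-fold, from 143 to 121 and 126 CPM (log2 -0.21 ± 0.07, adjusted p = 0.00519), and CD74 fell 1.14-fold, from 579 to 496 and 524 CPM (log2 -0.19 ± 0.07, adjusted p = 0.0173). HLA-DOB fell 2.02-fold on 67 reads in the control and 23 and 38 treated (log2 -1.02 ± 0.31, adjusted p = 0.00511).

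With a single JeKo-1 control, each of these calls rests on that library and on the scatter of the treated pair pooled over transcripts. The p-values therefore do not measure the spread of a gene's own treated pair. TCF3, at 155 and 188 CPM in treated JeKo-1, has an SE of 0.068, beside 0.066 for IRF4 at 313 and 315 CPM. Treated libraries lay on 1 side of the control in 82.4% of all genes. Without treated replicate 1 the adjusted p was 0.186 for CD74, 0.169 for HLA-DRB1 and 0.204 for HLA-DOB, and without treated replicate 2 it was 0.0545 for HLA-DQA1 and 0.0734 for HLA-DRB1. Leaving out a treated library leaves 1 against 1, so these values come from the model of all lines, where the lone library is assumed to vary like the other groups; with all 7 libraries in that model the same number of genes, 4, passed. By DESeq2's Wald test HLA-DQA1 kept its call, and CD74, HLA-DRB1 and HLA-DOB had adjusted p of 0.0505, 0.087 and 0.409. With the copies summed, the DRB genes changed by log2 -0.21 and the DQA genes by -0.36, with adjusted p of 0.00662 and 9.82e-07.

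The remaining JeKo-1 members did not pass. CIITA was estimated at log2 0.17 ± 0.08 (adjusted p = 0.0788) and HLA-DMB at -0.16 ± 0.07 (adjusted p = 0.0752). HLA-DRA was at 0.07 ± 0.07, HLA-DPA1 at 0.09 ± 0.07, HLA-DPB1 at 0.07 ± 0.07 and HLA-DMA at -0.09 ± 0.07, with adjusted p from 0.343 to 0.5. The authors' deposited table gives log2 ratios in JeKo-1 of -0.1326 for HLA-DRA, -0.3882 for CD74 and -0.3021 for HLA-DRB1, without a p-value. The header of these ratios reads ALKi, while the JeKo-1 sample columns beside it name the BTK inhibitor. For HLA-DRA that ratio, taken between quantile-normalized values, has the opposite sign to the TMM-scaled estimate.

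**Figure D4:**
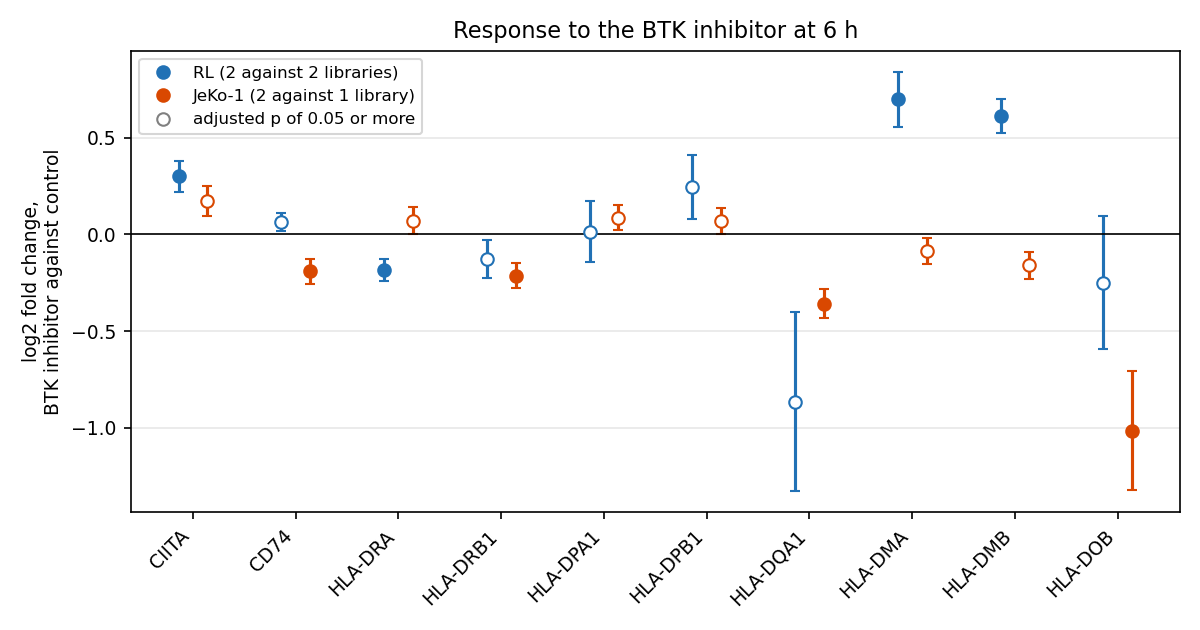
Log2 fold change of treated against control libraries in RL (blue) and JeKo-1 (orange) for each gene, with bars of 1 SE; open circles did not pass the test. HLA-DMA and HLA-DMB rise in RL (0.70 and 0.61) and lie just below 0 in JeKo-1 (-0.09 and -0.16), and the 4 filled JeKo-1 points are all below 0.

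The response to the inhibitor differed between the lines for 4 of the 10 genes, beside 17.8% of all 15845 genes tested for the difference (8.82% higher in JeKo-1 and 8.95% lower). The difference of JeKo-1 minus RL was log2 -0.77 ± 0.14 for HLA-DMA (adjusted p = 5.96e-04) and -0.76 ± 0.11 for HLA-DMB (adjusted p = 4.6e-05), the pair that forms HLA-DM. It was -0.24 ± 0.08 for CD74 (adjusted p = 0.0335) and 0.27 ± 0.09 for HLA-DRA (adjusted p = 0.035), and both of these were lost when RL control replicate 1 or 2, treated RL replicate 2 or treated JeKo-1 replicate 1 was left out. For CIITA the difference was -0.11 ± 0.11 (adjusted p = 0.56), for HLA-DRB1 -0.08 ± 0.11 and for HLA-DQA1 0.52 ± 0.41. The difference was -0.76 ± 0.48 for HLA-DOB, 0.09 ± 0.15 for HLA-DPA1 and -0.17 ± 0.16 for HLA-DPB1. For these 6 genes a p that missed the threshold does not show that the lines responded alike.

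Among the remaining class II genes, HLA-DQB1 fell and HLA-DOA rose in both lines. Of all genes, 30.4% were called in RL and 28.3% in JeKo-1. Of 4 tested in RL, HLA-DOA rose (log2 0.37 ± 0.12, adjusted p = 0.0413) and HLA-DQB1 fell (log2 -0.57 ± 0.15, adjusted p = 0.012). Of 7 tested in JeKo-1, HLA-DOA rose (log2 0.28 ± 0.08, adjusted p = 0.00278). There HLA-DQB1 fell from 14.7 to 9.07 and 9.51 CPM (log2 -0.67 ± 0.12, adjusted p = 2.24e-07), HLA-DQA2 fell by log2 -0.36 ± 0.08 and HLA-DRB5 by -0.21 ± 0.08. HLA-DQA2 and HLA-DRB5 share stretches with HLA-DQA1 and HLA-DRB1, which changed by -0.36 and -0.21 there. Whether these are changes of separate genes or of reads split between copies was not tested. HLA-DRB6, HLA-DQB2 and HLA-DPB2 did not pass in JeKo-1, nor HLA-DRB5 and HLA-DRB6 in RL, and none of the 4 tested in both lines (HLA-DQB1, HLA-DRB5, HLA-DRB6 and HLA-DOA) passed the test of the difference. HLA-DOA lost its call by DESeq2's Wald test and with a library left out in both lines, HLA-DQB1 did so in RL, HLA-DRB5 in JeKo-1, and HLA-DQA2 there without treated replicate 1 (adjusted p = 0.063). HLA-DQB1 overlaps an antisense RNA over 177 exon bases.

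Of the 7 enhanceosome genes, 1 fell in RL, and 1 rose and 1 fell in JeKo-1. Of all genes, 30.4% were called in RL and 28.3% in JeKo-1, so these counts do not exceed the background. NFYA fell in RL from 24.5 and 24.2 to 18.1 and 17.5 CPM (log2 -0.45 ± 0.06, adjusted p = 2.33e-04) and in JeKo-1 from 137 to 123 and 123 CPM (log2 -0.16 ± 0.07, adjusted p = 0.0438, lost under most alternatives). NFYB rose in JeKo-1 from 54.8 to 67.9 and 67.2 CPM (log2 0.30 ± 0.07, adjusted p = 2.99e-04). The difference between the lines was 0.30 ± 0.09 for NFYA (adjusted p = 0.0177) and 0.34 ± 0.09 for NFYB (adjusted p = 0.0123). Without RL control replicate 1 both lost that call (0.0568 and 0.0759), as did NFYA without treated RL replicate 2 (0.0644). RFX5, RFXAP, RFXANK, NFYC and CREB1 passed in neither line.

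Regulators known from the CIITA promoters moved in both directions, with 6 of 10 higher and 2 lower in RL, and 4 higher and 3 lower in JeKo-1, where 30.4% and 28.3% of all genes were called in either direction. IRF8, a B-cell and myeloid factor, rose in RL from 53.9 and 54.8 to 102 and 108 CPM (log2 0.96 ± 0.05, adjusted p = 1.56e-07), and in JeKo-1 it fell from 47.5 to 40.8 and 42.2 CPM (log2 -0.20 ± 0.08, adjusted p = 0.027). IRF4, which drives plasma cell programmes, went the other way: it fell in RL (log2 -0.41 ± 0.05, adjusted p = 5.67e-05) and rose in JeKo-1 (log2 0.51 ± 0.07, adjusted p = 5.23e-13). Both differences between the lines passed, at log2 -1.14 ± 0.09 for IRF8 and 0.93 ± 0.08 for IRF4 (adjusted p = 2.54e-08 and 7.04e-08). IRF1 rose in both lines (log2 0.43 ± 0.06 in RL and 0.33 ± 0.08 in JeKo-1). TCF3 and IRF2 also rose in both, by 0.81 ± 0.07 and 0.74 ± 0.09 in JeKo-1 and 0.25 ± 0.05 and 0.22 ± 0.06 in RL. PRDM1 rose in RL (0.46 ± 0.07) and did not pass in JeKo-1, and SPI1 fell in JeKo-1 (-0.92 ± 0.15) and did not pass in RL.

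Genes of the endosomal compartment where class II is loaded fell in part in both lines. Of 11 tested, 2 rose and 3 fell in RL, and none rose and 7 fell in JeKo-1; the difference between the lines passed for 7, lower in JeKo-1 for 6 of them. Over all genes the shares were 15.1% higher and 15.3% lower in RL, 13.4% and 14.9% in JeKo-1, and 17.8% for the difference. IFI30, the thiol reductase GILT, fell in RL from 91.2 and 96.1 to 43.2 and 45.9 CPM (log2 -1.07 ± 0.05) and in JeKo-1 from 36.2 to 11.2 and 12.4 CPM (log2 -1.62 ± 0.09). CTSZ, a lysosomal carboxypeptidase, fell by log2 -0.57 ± 0.05 in RL and -1.71 ± 0.08 in JeKo-1. CTSC also fell in both lines (-0.52 ± 0.05 in RL and -0.21 ± 0.07 in JeKo-1). CTSB and CTSH fell in JeKo-1 (-0.46 ± 0.09 and -0.75 ± 0.15) and did not pass in RL, while CTSD rose in RL (0.27 ± 0.07) and fell in JeKo-1 (-0.49 ± 0.10). CTSH in JeKo-1 and CTSD in RL lost their calls by DESeq2's Wald test.

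Class I and its loading machinery gave 6 higher and 2 lower of 15 genes in RL, and 1 higher and 7 lower in JeKo-1, beside 15.1% and 15.3% of all genes in RL and 13.4% and 14.9% in JeKo-1. HLA-F rose in RL (log2 0.65 ± 0.10), and the chaperone CALR and the peptide transporter subunit TAP2 fell (-0.52 ± 0.07 and -0.41 ± 0.07). In JeKo-1 CALR, TAP2, TAPBP and HLA-E fell (-0.54 ± 0.07, -0.81 ± 0.14, -0.48 ± 0.10 and -0.29 ± 0.07), HLA-E without a call by DESeq2's Wald test (adjusted p = 0.0717). The medians over the 10 genes described here were log2 0.039 in RL and -0.12 in JeKo-1, beside 0.0073 and -0.0066 over all genes. For class I they were 0.14 and -0.12, and for processing and turnover 0.09 and -0.36. The sum of monocyte and dendritic cell markers was lower in treated than in control libraries of both lines, mainly through CD1C, and its part in these results was not tested.

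The patterns most like those of 3 members were sought among the genes averaging at least 5 CPM, by the root mean square difference of log2(CPM + 0.5), centred per gene over the 7 libraries. For CIITA they were CENPM (0.0487), YIPF3, ZNF511, PNKD and PLK1S1 (0.0737), whereas the member nearest to CIITA was HLA-DMB at 0.379. For CD74 they were PDE6D (0.036), TP53BP1, MAPK14, AEN and ARRB2 (0.0523), and the nearest member was CIITA at 0.459. For HLA-DRA they were INHBE (0.102), SCN2A, SCN3A, ZNF844 and PRSS21 (0.215), and the nearest members were HLA-DPB1 at 0.278 and HLA-DMA at 0.327. Each value covers 7 libraries of 2 lines, so it mainly measures the difference between the lines.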

How the data were processed

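Per the labels' protocols, the RNA-seq libraries were built with the TruSeq RNA kit of Illumina. Per the submitters' processing notes, CASAVA 1.8, BWA, Partek 6.6 and hg19 (GRCh37) were used, with no stated role. Raw read counts of 34917 RefSeq transcripts were deposited, per the file headers. Also from the authors are deposited log2 values (quantile-normalized reads and ratios), a p-value and FDR for RL from a test not named in the sources used here, and a joint table of signed fold scores for 3536 transcripts, holding HLA-DMA, HLA-DMB and HLA-DOB of the members. Those were copied, not tested.

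Counts were tested as deposited with edgeR 4.0.16 in R 4.3.3 (filterByExpr, TMM, glmQLFit, glmQLFTest, two-sided), adjusted by Benjamini-Hochberg over all transcripts. RL (25099 transcripts, 2 residual degrees of freedom) and JeKo-1 (23564, 1 degree) were fitted alone. Differences of effects and of untreated lines used a 4-group model of all 7 libraries (26362, 3 degrees). All 10 genes passed the filter in each fit. Each standard error was taken as the log2 change over the square root of F. The treatment and untreated comparisons share control libraries. Libraries of a group scattered more than Poisson counts (chi-square per degree of freedom 3.413 to 4.549).

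The members and lists were chosen with earlier results of these data known. Up to 4 called genes per list and line with the smallest p are named, plus all tested class II and enhanceosome genes; IRF4, IRF8, NFYA and NFYB were chosen for the test of a difference, and PRDM1, RFX5, CD1C and other markers for their untreated level, after their values were seen. The values of 1 list gene that the rule names are not reported here. Alternatives were DESeq2 1.42.0 (size factors, Wald test), other filters, 1 transcript per gene, summed HLA copies, each library left out, the 4-group model and a replicate block. The procedures were tested on simulated counts.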

Additional observations from a re-analysis of the deposited data

Results flagged for a closer look

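The response to the inhibitor differed between the lines by the test of the difference itself (edgeR's quasi-likelihood test, adjusted over all transcripts) for 4 class II genes: as JeKo-1 minus RL on the log2 scale, HLA-DMA at -0.77, HLA-DMB at -0.76, CD74 at -0.24 and HLA-DRA at 0.27. For HLA-DMA and HLA-DMB both treated RL libraries lay above both controls and both treated JeKo-1 libraries lay below the control. Such separation is common, at 65.3% of all genes in RL and 82.4% in JeKo-1. Neither HLA-DMA nor HLA-DMB passed the test in JeKo-1 alone. The difference also passed for NFYA at 0.30, NFYB at 0.34, IRF4 at 0.93 and IRF8 at -1.14. CD74, HLA-DRA, NFYA and NFYB lost the call when single libraries were left out; HLA-DMA, HLA-DMB, IRF4 and IRF8 kept it in every alternative run. No explanation was tested for any of them.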

How the results depend on the processing

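All 10 untreated differences, and the calls of HLA-DMA and HLA-DMB in RL and for the difference between the lines, held under every alternative in which they were tested; a filter of at least 5 CPM left 5 of the 10 genes to test in RL and 9 in JeKo-1. Over all alternatives, 420 values of the 10 genes kept direction and stayed called or stayed uncalled, 24 lost the call and 8 changed sign. Of the 420, 119 were untreated differences, and many others had not passed in the main run. The 24 losses were all in the inhibitor effects and their difference between the lines. By DESeq2's Wald test 2 of the 10 genes (2956 of all genes) passed in RL and 1 (1581 of all genes) in JeKo-1, against 4 (4543) and 4 (3970) by edgeR. With each library left out in turn, 2 to 4 genes passed in RL (3345 to 4326 of all genes), 1 to 2 in JeKo-1 (2397 to 2931) and 2 to 4 for the difference (1947 to 2872); the JeKo-1 values come from the 4-group model, in which 4 genes (3521 of all) passed with all libraries, and the JeKo-1 control could not be left out. The sign changes were all in values that did not pass. HLA-DPA1 in RL was -0.001 by the Wald test, -0.006 with the replicate block and -0.22 to 0.29 with a library left out. The left-out range in RL was -0.73 to 0.06 for HLA-DOB, -0.12 to 0.71 for HLA-DRB5 and -0.06 to 0.29 for HLA-DRB6, and for the difference -0.19 to 0.31 for HLA-DPA1, -0.32 to 0.051 for HLA-DPB1 and -0.14 to 0.023 for HLA-DRB1. CD74 lost its JeKo-1 call with DESeq2's size factors (adjusted p = 0.0505), and its difference between the lines too (0.084).

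Same-numbered RL libraries did not deviate together (correlation -0.00609 across 14932 genes, which are not independent), so the numbers were not taken as pairs. With the replicate block 4 of the 10 genes passed in RL (4416 of all genes) and 4 for the difference (2735), and HLA-DOA lost its RL call (adjusted p = 0.0536). Low counts limit HLA-DQA1 and HLA-DOB in RL.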
